A study of Mus musculus with 12 samples.

Results

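The NADPH oxidase subunits and the superoxide dismutases, 8 genes in all, were followed across the libraries of this series. Cybb, Nox1 and Nox4 encode catalytic subunits of NADPH oxidases, Cyba and Ncf1 encode partner subunits, and Sod1, Sod2 and Sod3 encode the dismutases. They were chosen by symbol, as the rows whose Ensembl identifier without its version maps to these names, and all 8 were found among 55822 identifiers. RNA came from primary mouse aortic smooth muscle cells in 12 libraries of 3 groups, with 4 libraries each. In the group called IFNγ/LPS CM, cells received conditioned medium of bone marrow-derived macrophages that had been primed overnight with 20 ng/mL interferon gamma, stimulated for 4 hours with 100 ng/mL lipopolysaccharide and washed. In the group called naive CM, the medium came from control macrophages without these agents. In both, fresh medium with 0.3% serum and 10 ng/mL M-CSF was conditioned for 24 hours, and the smooth muscle cells, starved for 48 hours in 0.3% serum, were exposed to it for 24 hours. The remaining cells stayed in regular growth medium, the group called regular medium, and the labels do not say whether those cells were starved or what serum they had. Neither strain, sex and age of the animals nor whether the numbered biological replicates came from separate animals or cultures is given by the labels, so the spread behind the p-values is that of these libraries and may be technical.

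NADPH oxidases move electrons from NADPH across a membrane onto oxygen, which yields superoxide or, for NOX4, mostly hydrogen peroxide. The catalytic subunit NOX2, encoded by Cybb and best known from phagocytes, is paired with p22phox, encoded by Cyba, and works only once cytosolic subunits, among them p47phox (Ncf1), and a Rac GTPase have joined it, whereas NOX4 is active with p22phox alone. Superoxide dismutases convert superoxide to hydrogen peroxide in the cytosol (Sod1, copper and zinc), the mitochondrial matrix (Sod2, manganese) and the extracellular space (Sod3, copper and zinc). In the artery wall NOX1, NOX2 and NOX4 and the secreted enzyme of Sod3 are all known in smooth muscle or its surroundings.

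The libraries held from 28097496 to 61493375 estimated counts. The deposited table names its conditioned-medium columns M0, taken here to be naive CM, or M1, taken to be IFNγ/LPS CM, and every direction given here depends on that reading. The first principal component of log2 CPM over the 12 libraries held 82.3% of the variance and the second 4.53%. Of 12 smooth muscle markers 11 were tested, with 1 higher and 8 lower in IFNγ/LPS CM than in naive CM. That is a share called of 81.8%, beside 71.9% of all genes (36.1% higher and 35.8% lower). The summed level of the 12 was 258 to 280 CPM in IFNγ/LPS CM, 787 to 879 CPM in naive CM and 1172 to 1304 CPM in regular medium. Acta2 averaged 77.3, 220 and 280 CPM in that order, while the late marker Myh11 averaged only 0.203, 0.592 and 0.716 CPM and Actg2 was at or near 0. Of 7 adventitial fibroblast markers 2 were higher and 4 lower in the same comparison, a share called of 85.7%. Dcn had the highest level, at 4670, 1600 and 1670 CPM in IFNγ/LPS CM, naive CM and regular medium. The 7 endothelial markers summed to at most 3.39 CPM in any library. The part of these shifts in the results below was not tested. CPM are counts per 1000000 of the library total after TMM scaling.

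Cybb and Sod2 rose by more than an order of magnitude in IFNγ/LPS CM, Sod3 rose about 2-fold, Sod1 fell by less than 2-fold, and Nox4 and Cyba stayed close to their levels in naive CM. Nox1 and Ncf1 were too low to judge. Sizes are given as fitted log2 fold changes, called log2 ratios. With a Benjamini-Hochberg adjusted p under 0.05 in the edgeR quasi-likelihood test as the call, 6 of the 8 genes were tested and 5 passed in IFNγ/LPS CM against naive CM, 4 higher and 1 lower. In that comparison 71.9% of the 16140 genes tested were called, 36.1% higher and 35.8% lower, so a call by itself sets none of these genes apart from the rest. Scaled by library totals in place of TMM, which moves the median log2 ratio of all genes from 0.004 to -0.38, the 6 genes split into 3 higher and 3 lower. In IFNγ/LPS CM against regular medium 4 of 6 passed, 3 higher and 1 lower (3 and 3 with library totals), where 71.8% of all genes were called, 35.4% higher and 36.4% lower. In naive CM against regular medium 2 of 6 passed, 1 higher and 1 lower, where 34.7% were called, 18.3% higher and 16.4% lower. The 3 comparisons share libraries and are not independent of each other. In those with regular medium, macrophage medium cannot be told apart from starvation, serum or M-CSF.

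**Figure D1:**
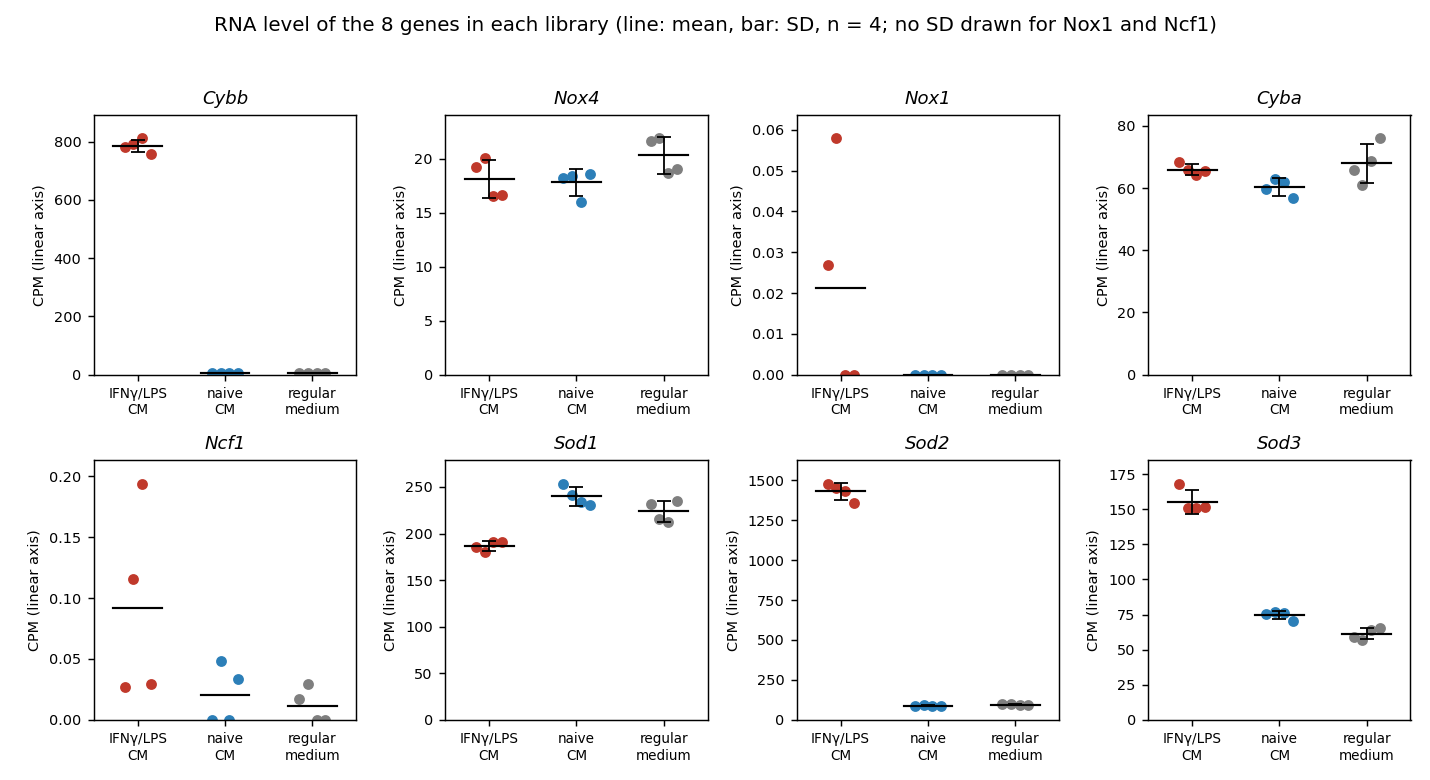
RNA level in CPM of each of the 8 genes (one panel per gene, linear axis from 0) in the 4 libraries of IFNγ/LPS CM, naive CM and regular medium; points are libraries, lines are means and bars are SD, with no SD drawn for Nox1 and Ncf1. Cybb lies between 759 and 811 CPM in IFNγ/LPS CM and under 7 CPM elsewhere, Sod2 between 1360 and 1480 CPM against under 100 CPM, Nox4 between 15.9 and 21.9 CPM in all groups and Cyba between 56.8 and 76.0 CPM.

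Cybb, the gene of the NOX2 catalytic subunit, lies on chromosome X at 9435252 to 9487771 on the minus strand (GRCm38, GENCODE M21, as for all positions given; the submitters' notes name the same build as mm10). It stood at 782, 790, 811 and 759 CPM in the 4 libraries of IFNγ/LPS CM, compared with 6.9, 6.08, 6.45 and 5.93 CPM in naive CM and 5.86, 6.8, 5.27 and 6.3 CPM in regular medium. The libraries of IFNγ/LPS CM were all far above the others, which overlapped among themselves. The ratio to naive CM was 124-fold (log2 ratio 6.96, SE 0.0675, edgeR adjusted p = 8.59e-24) and to regular medium 128-fold (log2 ratio 7.00, edgeR adjusted p = 6.83e-24). Naive CM itself did not move Cybb past the test (log2 ratio 0.04, 95% interval -0.10 to 0.19, edgeR adjusted p = 0.669). In bulk RNA, a change in RNA per cell and a change in the number of cells of a type cannot be told apart. Ranked by level per kilobase of exon among 15686 genes with a length, Cybb stood at place 356 in IFNγ/LPS CM, compared with place 10920 in naive CM and 10994 in regular medium.

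Because Cybb is a marker of phagocytes in tissue, its level is given beside those of macrophage markers. Of 10 defining markers 3 were tested, and all 3 were higher in IFNγ/LPS CM than in naive CM, where 36.1% of all genes were. Lyz2, with 18 and 20 counts in naive CM and regular medium, entered the test through its level in IFNγ/LPS CM. Csf1r had 44 and 27 counts there, near the filter minimum of about 10 counts per library. For these genes the filter itself thus favoured a higher call in IFNγ/LPS CM. The summed level of all 10 was 9.68 to 12.7 CPM in IFNγ/LPS CM, 1.41 to 1.57 CPM in naive CM and 0.996 to 1.12 CPM in regular medium. Csf1r, the M-CSF receptor, averaged 4.62 CPM in IFNγ/LPS CM and 0.203 CPM in naive CM, and Cd68, a lysosomal glycoprotein, 6.19 and 1.07 CPM; with Lyz2 at 0.472 and 0.0785 CPM these were the markers that passed. The other 7 averaged under 1 CPM in every group. The pan-leukocyte marker Ptprc had 1 count in IFNγ/LPS CM, 3 in naive CM and 3 in regular medium, Adgre1 had 2, 0 and 0 counts, Tyrobp had 2, 2 and 0 counts and Laptm5 had 0, 3 and 2 counts, while Cybb had 111335, 1259 and 1267 counts in the same libraries. Over all 20 macrophage markers the summed level was 75.6 to 88.9 CPM in IFNγ/LPS CM, 27.4 to 31.3 CPM in naive CM and 16.9 to 18.9 CPM in regular medium. Most of it came from Cd14, Itgb2 and Cd53, at 42.9, 14.9 and 14.5 CPM in IFNγ/LPS CM and 18.7, 0.381 and 8.22 CPM in naive CM. Csf1r, Cd68, Lyz2 and the summed level of the markers thus rose together with Cybb, and their part in its rise was not tested.

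**Figure D2:**
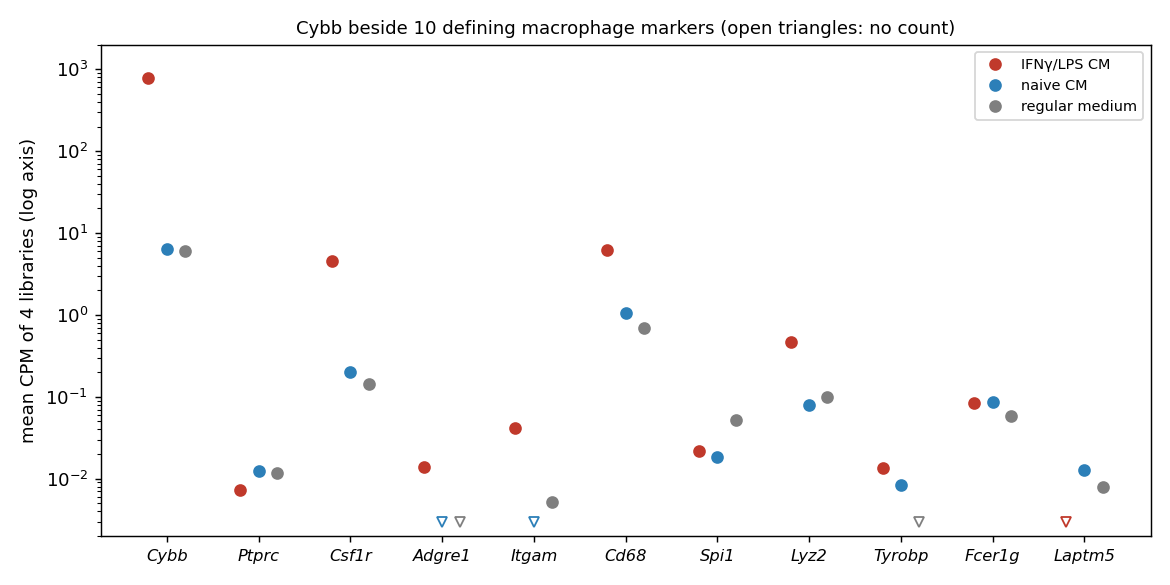
Mean CPM of 4 libraries (log axis) of Cybb and of 10 defining macrophage markers in IFNγ/LPS CM, naive CM and regular medium; open triangles mark groups with no count. Cybb at 785 CPM in IFNγ/LPS CM stands above every marker, of which the highest are Cd68 and Csf1r at 6.19 and 4.62 CPM, and all 3 of Csf1r, Cd68 and Lyz2 are highest in IFNγ/LPS CM while the other markers stay under 0.1 CPM.

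The promoter window of Cybb is shown because it holds one motif 3 times. RefSeq (GRCm38.p6) gives a window of 250 bases before to 50 bases after the start for 7 of the 8 genes. For Cybb, Nox1, Nox4, Sod1 and Sod2 this RefSeq start lies inside the GENCODE span given for the gene, not at its outer end. Windows at other annotated starts were not searched. Each was searched on both strands for the interferon-stimulated response element (ISRE/IRF, the letters GAAANN followed directly by GAAA), the gamma-activated site (GAS, TTCNNNGAA), the NF-κB consensus, a PU.1 core (GAGGAA), the antioxidant response element (TGACNNNGC) and the TATA box (TATAAA). Below are the 250 bases before the start of Cybb (chrX:9469325-9469574, minus strand) and, for contrast, of the partner gene Ncf1 (chr5:134229626-134229875, minus strand), 5′ to 3′, with every match in capitals.
Cybb: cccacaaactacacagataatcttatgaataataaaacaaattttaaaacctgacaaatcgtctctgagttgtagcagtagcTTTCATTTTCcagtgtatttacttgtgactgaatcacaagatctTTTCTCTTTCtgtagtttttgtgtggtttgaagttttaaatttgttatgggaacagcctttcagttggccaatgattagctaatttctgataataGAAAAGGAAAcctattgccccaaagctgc
Ncf1: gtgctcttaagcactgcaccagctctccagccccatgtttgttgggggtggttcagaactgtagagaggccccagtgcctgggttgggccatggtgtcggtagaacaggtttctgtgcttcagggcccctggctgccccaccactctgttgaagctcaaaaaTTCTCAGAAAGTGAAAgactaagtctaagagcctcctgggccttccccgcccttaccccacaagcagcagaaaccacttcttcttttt
The Cybb window holds 3 ISRE/IRF matches, which begin at positions -168, -124 and -29 from the start, and a PU.1 match at position 10 after the start, outside the stretch printed. Of 32851 promoter windows 3.44% hold at least one ISRE/IRF match. The Ncf1 window holds a GAS match at -88 that overlaps an ISRE/IRF match at -82, and GAS matches occur in 8.3% of all windows. Neither motif type was found in the windows of Cyba and Sod1, while that of Nox4 holds a GAS match at -222. A match is a sequence feature of the window, and binding was not measured.

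Nox4, the constitutively active oxidase of vascular smooth muscle, lies on chromosome 7 at 87246096 to 87398710 on the plus strand. It had 19.3, 20.0, 16.5 and 16.7 CPM in IFNγ/LPS CM, 18.3, 18.4, 15.9 and 18.6 CPM in naive CM and 21.6, 21.9, 18.6 and 19.1 CPM in regular medium. The libraries of the conditioned media overlapped, and regular medium overlapped IFNγ/LPS CM but not naive CM, whose highest library (18.61 CPM) lay just under the lowest of regular medium (18.65 CPM). It did not pass in any comparison: the log2 ratio was 0.02 against naive CM (95% interval -0.14 to 0.18, edgeR adjusted p = 0.822), -0.17 against regular medium (-0.33 to -0.01, edgeR adjusted p = 0.0604), and -0.19 for naive CM against regular medium (-0.35 to -0.03, edgeR adjusted p = 0.0647). Against regular medium it passed without IFNγ/LPS CM replicate 1 or 2, naive CM replicate 3 or regular medium replicate 3 or 4 (edgeR adjusted p = 0.0249 to 0.0484), and naive CM against regular medium passed without regular medium replicate 3 or 4 (edgeR adjusted p = 0.0397 and 0.0361). The interval against naive CM leaves room for changes of up to 1.14-fold in the upward direction and down to 0.906 times. Scaled by library totals alone, which moves the median of all genes by -0.38, Nox4 was lower against naive CM (log2 ratio -0.37, edgeR adjusted p = 0.000336), close to that median.

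Nox1, the catalytic subunit of a superoxide-producing oxidase known from colon and smooth muscle, lies on chromosome X at 134086421 to 134221956 on the minus strand and overlaps Cstf2 in its exons. It had 1, 2, 0 and 0 counts in IFNγ/LPS CM and no count in the 8 other libraries. No fold is given, since 3 counts is the limit that a count of 0 allows (0.0212 CPM in IFNγ/LPS CM, 0.015 CPM in naive CM and 0.0147 CPM in regular medium, for counting error only). At this depth Nox1 RNA was barely detectable in IFNγ/LPS CM and not detectable elsewhere.

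Cyba, the p22phox subunit that NOX1, NOX2 and NOX4 share, lies on chromosome 8 at 122424776 to 122432930 on the minus strand, and its RNA was plentiful in every group. It stood at 68.2, 65.7, 64.2 and 65.5 CPM in IFNγ/LPS CM, 59.6, 62.9, 62.1 and 56.8 CPM in naive CM and 65.9, 61.1, 68.7 and 76.0 CPM in regular medium. IFNγ/LPS CM lay just above naive CM without overlap and inside the range of regular medium. The change against naive CM was 1.09-fold (log2 ratio 0.13, SE 0.0559, edgeR adjusted p = 0.0490), and it was lost in 14 of 20 alternatives, among them without any 1 of the 4 IFNγ/LPS CM libraries, without naive CM replicate 1, 3 or 4, and without regular medium replicate 1 or 3 (edgeR adjusted p = 0.0518 to 0.17). With library totals it turned to a log2 ratio of -0.26 (edgeR adjusted p = 0.000196), above the median of all genes at -0.38. Against regular medium Cyba did not pass (log2 ratio -0.04, edgeR adjusted p = 0.508), and naive CM was 0.889 times regular medium (log2 ratio -0.17, edgeR adjusted p = 0.0233), a call lost without naive CM replicate 1, naive CM replicate 4 or regular medium replicate 4 (edgeR adjusted p = 0.07 to 0.0897).

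Ncf1, the organizer subunit p47phox, lies on chromosome 5 at 134220053 to 134229625 on the minus strand. It had 1, 4, 7 and 1 counts in IFNγ/LPS CM, 0, 3, 0 and 2 counts in naive CM and 1, 2, 0 and 0 counts in regular medium. Summed, these were 13, 5 and 3 counts, and the ratio of IFNγ/LPS CM to naive CM was 3.67 with an exact 95% interval of 1.23 to 13.2 that covers counting error only. Without IFNγ/LPS CM replicate 3, which held 7 of the 13 counts, the ratio was 2.27 (0.578 to 9.41). Its exons overlap those of Gtf2ird2 on the opposite strand, and no source used here says whether counting used strand. The level was too low to judge in every group.

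Among the other parts of the NOX2 complex, RNA of the membrane chaperone and of Rac1 was plentiful, and that of Ncf4 and Rac2 was nearly absent. Cybc1, a chaperone that NOX2 and p22phox need to form their complex, reached 104.2 CPM in IFNγ/LPS CM and stood at 39.6 CPM in naive CM, and no library of the groups overlapped (2.63-fold, log2 ratio 1.40, SE 0.0381, edgeR adjusted p = 4.83e-17). Rac1, the widely expressed Rac GTPase, averaged 416 CPM against 379 CPM (log2 ratio 0.13, edgeR adjusted p = 0.00431) and turned to -0.25 with library totals. Ncf4, the p40phox subunit, had 5 counts in IFNγ/LPS CM and none elsewhere, and Rac2, the Rac GTPase of blood cells, had 1 count in all 12 libraries. Per kilobase of exon, Cybb averaged 135 CPM in IFNγ/LPS CM and Ncf1 0.025 CPM.

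**Figure D3:**
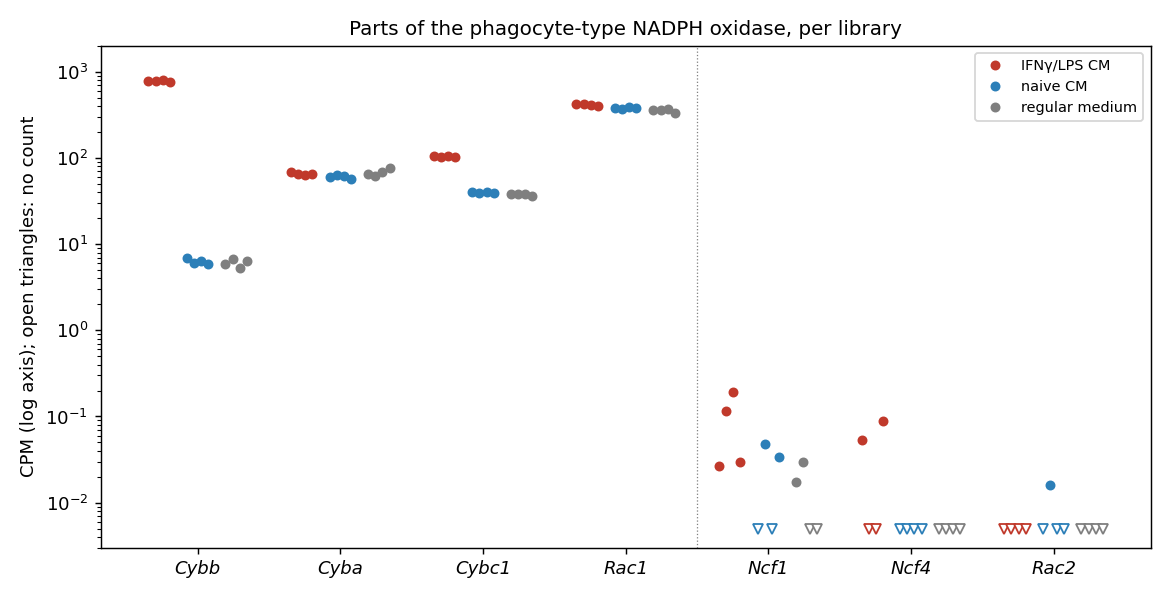
CPM per library (log axis, open triangles for libraries with no count) of the membrane parts Cybb and Cyba, the chaperone Cybc1, Rac1 and, right of the dotted line, the cytosolic subunits Ncf1 and Ncf4 and the GTPase Rac2. In IFNγ/LPS CM the genes on the left lie above 60 CPM, while those on the right lie under 0.5 CPM in every library of every group.

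Of 16 other NADPH oxidase genes listed, 9 were tested; 5 were higher and 3 lower in IFNγ/LPS CM than in naive CM, where 71.9% of all genes were called, with a median log2 ratio of 0.15 beside 0.004 for all genes. With library totals the split was 4 higher and 4 lower. Against regular medium IFNγ/LPS CM had 4 higher and 3 lower, a share called of 77.8% that is near the 71.8% of all genes. Naive CM had 1 higher and 3 lower than regular medium, a share called of 44.4% beside 34.7% of all genes. Beside Cybc1 and Rac1, the genes that rose against naive CM were Noxo1, the organizer of NOX1 (5.24 CPM against 2.10 CPM, 2.48-fold, edgeR adjusted p = 4.37e-08), Duox1, an oxidase that releases hydrogen peroxide (1.64 CPM against 0.582 CPM, 2.83-fold, edgeR adjusted p = 3.33e-06), and Sh3pxd2b, a scaffold protein related to the p47phox organizer (164 CPM against 98.8 CPM, 1.66-fold, edgeR adjusted p = 4.95e-10). Of the genes that rose, only Duox1 did not pass against regular medium (1.30 CPM, log2 ratio 0.35, edgeR adjusted p = 0.123). Naive CM was itself below regular medium in Duox1 (log2 ratio -1.16, edgeR adjusted p = 0.000294). Those that fell were Sh3pxd2a, another such scaffold (99.6 CPM against 192 CPM, log2 ratio -0.95, edgeR adjusted p = 2.19e-13), Poldip2, a partner of p22phox reported to raise NOX4 activity (40.2 CPM against 55.3 CPM, log2 ratio -0.46, edgeR adjusted p = 4.19e-08), and Duoxa1, the maturation factor of DUOX1, at 0.0351 CPM against 0.222 CPM (edgeR adjusted p = 0.000886), a level of few counts. Hvcn1, the proton channel that accompanies NOX2 activity, did not pass (edgeR adjusted p = 0.335). The 7 too low to test included Ncf4 and Rac2 as above. Also among them, Noxa1, the activator of NOX1, had 4 counts in IFNγ/LPS CM, 28 in naive CM and 10 in regular medium, a ratio of IFNγ/LPS CM to naive CM of 0.202 with an exact 95% interval of 0.0514 to 0.577 for counting error. Duox2 had 11, 6 and 6 counts, Nox3 had 0, 1 and 0, and Duoxa2 had none. The exons of Noxo1, Noxa1, Rac1, Cybc1, Hvcn1 and Duoxa1 overlap genes on the opposite strand, so with counting of unknown strand their values are less certain.

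Sod2, the mitochondrial manganese enzyme, lies on chromosome 17 at 13006846 to 13040063 on the plus strand. It stood at 1480, 1450, 1430 and 1360 CPM in IFNγ/LPS CM, 88.8, 91.0, 85.4 and 89.2 CPM in naive CM and 97.4, 95.8, 89.9 and 92.1 CPM in regular medium. All 4 libraries of IFNγ/LPS CM lay more than 10-fold above the rest. The ratio was 16.1-fold to naive CM (log2 ratio 4.01, SE 0.045, edgeR adjusted p = 5.64e-23) and 15.2-fold to regular medium (log2 ratio 3.93, edgeR adjusted p = 6.52e-23). Naive CM against regular medium did not pass (log2 ratio -0.08, 95% interval -0.17 to 0.003, edgeR adjusted p = 0.128). Among 15686 genes ranked per kilobase of exon, Sod2 stood at place 334 in IFNγ/LPS CM, 4659 in naive CM and 4369 in regular medium.

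The 250 bases before the start of Sod2 (chr17:13007589-13007838, plus strand, RefSeq, GRCm38.p6) are shown because they hold GAS and NF-κB matches, which the window of Cybb lacks, with matches in capitals.
Sod2: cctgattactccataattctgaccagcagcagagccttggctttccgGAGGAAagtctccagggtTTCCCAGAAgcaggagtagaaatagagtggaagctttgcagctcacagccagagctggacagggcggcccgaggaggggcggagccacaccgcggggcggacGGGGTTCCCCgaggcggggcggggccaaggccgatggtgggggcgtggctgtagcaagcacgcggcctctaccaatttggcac
They hold a PU.1 match at -203, a GAS match at -185 and an NF-κB match at -83 that fits the consensus on both strands, and no ISRE/IRF match. An NF-κB match occurs in 4.51% of all windows and a PU.1 match in 28.3%. The window of Nox1, a gene with 3 counts in all, also holds an NF-κB match, at -91.

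Sod3, the secreted dismutase that binds to matrix and the cell surface, lies on chromosome 5 at 52363791 to 52371418 on the plus strand. It had 168, 151, 151 and 152 CPM in IFNγ/LPS CM, 75.3, 76.6, 76.0 and 70.5 CPM in naive CM and 59.2, 57.0, 64.1 and 65.4 CPM in regular medium. The 3 groups did not overlap and stepped up from regular medium over naive CM to IFNγ/LPS CM. It was the only member that passed in all 3 comparisons: 2.08-fold for IFNγ/LPS CM against naive CM (log2 ratio 1.06, SE 0.0503, edgeR adjusted p = 3.24e-13), 2.53-fold against regular medium (log2 ratio 1.34, edgeR adjusted p = 8.83e-15) and 1.22-fold for naive CM against regular medium (log2 ratio 0.28, SE 0.0505, edgeR adjusted p = 0.00025).

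Sod1, the cytosolic copper-zinc enzyme, lies on chromosome 16 at 90220754 to 90226329 on the plus strand. It had 186, 180, 190 and 191 CPM in IFNγ/LPS CM, 254, 242, 234 and 231 CPM in naive CM and 231.3, 216.1, 212.3 and 235.2 CPM in regular medium. All 4 libraries of IFNγ/LPS CM lay below the 8 others, which overlapped. It fell to 0.778 times naive CM (log2 ratio -0.36, SE 0.043, edgeR adjusted p = 3.33e-07) and to 0.835 times regular medium (log2 ratio -0.26, edgeR adjusted p = 2.24e-05). Naive CM against regular medium did not pass (log2 ratio 0.10, 95% interval 0.01 to 0.19, edgeR adjusted p = 0.0749) except without regular medium replicate 4 (edgeR adjusted p = 0.0313). With library totals the fall against naive CM was -0.75 on the log2 scale, against a median of all genes of -0.38.

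**Figure D4:**
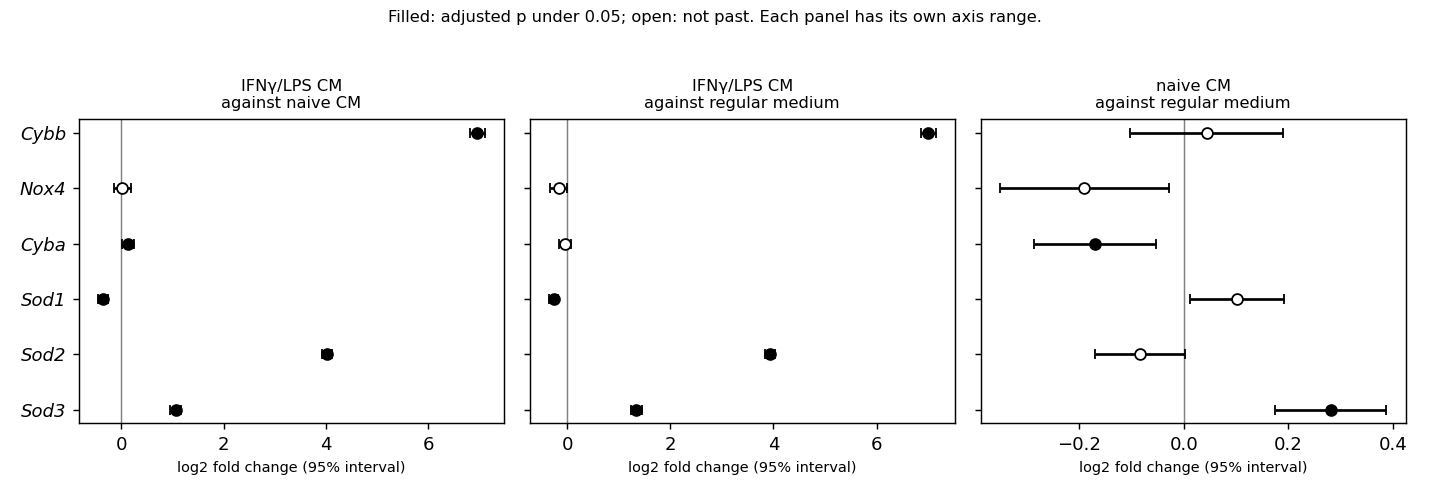
Log2 fold change with its 95% interval of the 6 genes tested, in IFNγ/LPS CM against naive CM, IFNγ/LPS CM against regular medium and naive CM against regular medium, each with its own horizontal range; filled points passed an adjusted p of 0.05. Cybb near 7 and Sod2 near 4 stand apart in the first and second panels, while in the third no point passes 0.3 in size.

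The shares of the dismutases in their summed RNA differed between the media. Per kilobase of the union of annotated exons, Sod2 held on average (± SD, n = 4 each) 61.7 ± 0.98% of the sum of Sod1, Sod2 and Sod3 in IFNγ/LPS CM, 9.92 ± 0.361% in naive CM and 11.4 ± 0.575% in regular medium. Sod1 held 20.3 ± 0.917% in IFNγ/LPS CM, 67.7 ± 0.738% in naive CM and 68.6 ± 0.988% in regular medium. The union length of Sod1, 3970 bp, includes a retained intron, and its principal coding transcript has 641 bp. With the length of the principal coding transcripts, a choice added after the values were seen, Sod2 held 42.3 ± 1.28%, against 3.69 ± 0.147% and 4.202 ± 0.208%, and Sod1 held 50.5 ± 1.42%, against 91.4 ± 0.256% and 91.5 ± 0.311%, in the same groups. The direction of both shifts was the same with either length, but which gene leads in IFNγ/LPS CM was not: Sod2 stood at 3.04 times Sod1 with the union length and at 0.838 times with the principal transcript. The share of Sod3 was 18.0% in IFNγ/LPS CM and 22.4% in naive CM with the union length, and 7.21% and 4.87% with the principal transcript, so its direction depends on the length taken.

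**Figure D5:**
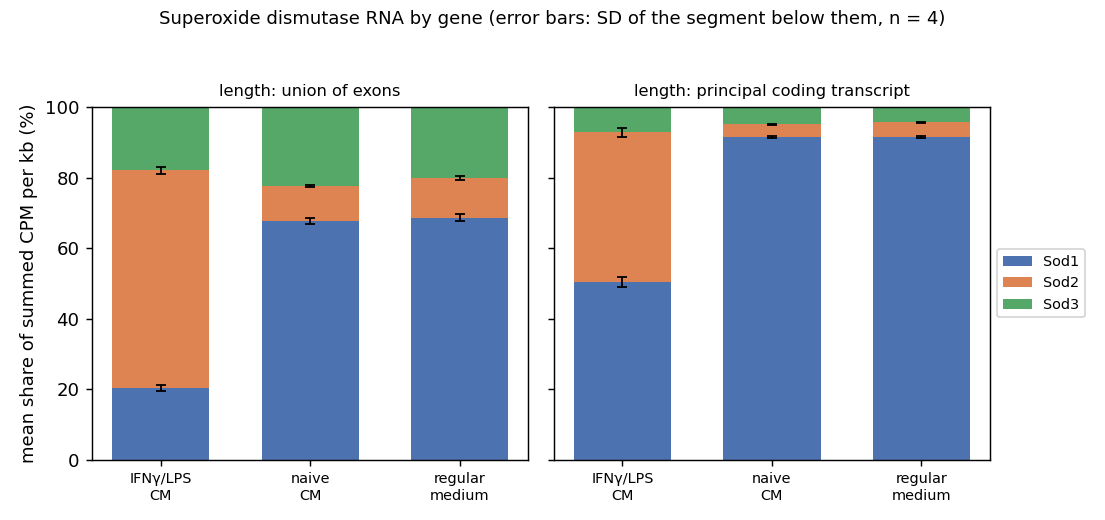
Mean share, in percent, of Sod1, Sod2 and Sod3 in their summed CPM per kilobase in IFNγ/LPS CM, naive CM and regular medium, with gene length taken as the union of exons (left) or the principal coding transcript (right); error bars are the SD of the segment below them (n = 4). Sod2 holds 61.7% or 42.3% in IFNγ/LPS CM, depending on the length, and under 12% in the other groups.

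In level per kilobase of exon, the order in IFNγ/LPS CM was Sod2 (143 ± 5.08), Cybb (135 ± 3.74), Cyba (63.4 ± 1.64), Sod1 (47.1 ± 1.32), Sod3 (41.6 ± 2.29), Nox4 (2.14 ± 0.211), Ncf1 (0.025) and Nox1 (0.00641 CPM per kb). Sod2 and Cybb overlapped in that order, at 136 to 148 and 131 to 140, as did Ncf1 and Nox1, and the other neighbours did not. In naive CM it was Sod1 (60.5 ± 2.54), Cyba (58.1 ± 2.67), Sod3 (19.9 ± 0.748), Sod2 (8.85 ± 0.234), Nox4 (2.10 ± 0.148), Cybb (1.09 ± 0.0745), Ncf1 (0.00563) and Nox1 (0), with Sod1 and Cyba overlapping, as well as Ncf1 and Nox1. In regular medium Cyba led (65.4 ± 5.99), followed by Sod1 (56.4 ± 2.83), Sod3 (16.4 ± 1.06), Sod2 (9.38 ± 0.342), Nox4 (2.40 ± 0.199), Cybb (1.04 ± 0.112), Ncf1 (0.00319) and Nox1 (0), and again Cyba and Sod1 overlapped, as did Ncf1 and Nox1. With principal coding transcripts Sod1 led in every group, at 291, 374 and 349 CPM per kb in IFNγ/LPS CM, naive CM and regular medium.

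Cybb exceeded Nox4 in level only in IFNγ/LPS CM, in every library and with each length tried. Cybb over Nox4 per kilobase was 63.7 ± 6.53 in IFNγ/LPS CM, compared with 0.522 ± 0.0589 in naive CM and 0.435 ± 0.0393 in regular medium (34.5, 0.283 and 0.236 with principal transcripts). Cybb over Cyba was 2.13 ± 0.0955 in IFNγ/LPS CM, compared with 0.0188 ± 0.00141 in naive CM and 0.0161 ± 0.0027 in regular medium (1.87, 0.0165 and 0.0141 with principal transcripts).

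Genes that handle the product or the cofactors of the dismutases are given for context. Of 19 genes of hydrogen peroxide removal 17 were tested, with 11 higher and 3 lower in IFNγ/LPS CM than in naive CM, a share called of 82.4% that is near the 71.9% of all genes, and a median log2 ratio of 0.25 beside 0.004 for all genes; with library totals the split turned to 6 higher and 9 lower. Against regular medium IFNγ/LPS CM had 13 higher and 2 lower (9 and 5 with library totals), where 35.4% and 36.4% of all genes were. The largest changes were in Prdx5, a peroxiredoxin of mitochondria, peroxisomes and cytosol (862 CPM against 133 CPM, 6.47-fold, edgeR adjusted p = 5.13e-19), Srxn1, which restores overoxidised peroxiredoxins (241 CPM against 71.3 CPM, 3.38-fold, edgeR adjusted p = 2.64e-12), and Prdx6 (302 CPM against 142 CPM, 2.13-fold, edgeR adjusted p = 7.24e-14). Of 12 genes of metal supply 11 were tested, with 9 higher and 2 lower, where 36.1% and 35.8% of all genes were (median log2 ratio 1.21), the same split with library totals. Against regular medium IFNγ/LPS CM had 10 higher and 1 lower (8 and 3 with library totals), where 35.4% and 36.4% of all genes were. Naive CM had 2 higher and 3 lower than regular medium, where 18.3% and 16.4% of all genes were. The largest changes were in the metallothioneins Mt2 (327 CPM against 11.7 CPM, 28.1-fold, edgeR adjusted p = 9.99e-11) and Mt1 (489 CPM against 48.2 CPM, 10.2-fold, edgeR adjusted p = 1.35e-07) and in the copper transporter Atp7b (28.8 CPM against 3.15 CPM, 9.19-fold, edgeR adjusted p = 3.38e-13). For each dismutase 1 supply gene was picked after the values were seen: Ccs, the copper chaperone of SOD1, fell (22.9 CPM against 29.4 CPM, log2 ratio -0.37, edgeR adjusted p = 0.000252), Atp7a, which loads copper onto SOD3, rose (69.7 CPM against 29.3 CPM, 2.39-fold, edgeR adjusted p = 1.77e-13), and Slc39a14, an importer of manganese, zinc and iron, rose (309 CPM against 51.6 CPM, 5.99-fold, edgeR adjusted p = 1e-19). Other copper genes of the list moved against a copper-zinc dismutase. The copper chaperone Atox1 fell while Sod3 rose (38.7 CPM against 44.8 CPM, edgeR adjusted p = 0.00521, with overlapping libraries). The copper importer Slc31a1 rose while Sod1 fell (36.3 CPM against 21.8 CPM, 1.665-fold, edgeR adjusted p = 4.5e-09).

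The genes closest to each member over the 12 libraries were found by the root mean square difference of log2 CPM after each gene was centred on its own mean. Closest to Cybb were Mx2, Gbp7 and Ifi204, all known as interferon-induced, at differences of 0.152, 0.154 and 0.184. They rose 148-fold, 135-fold and 126-fold against naive CM. By Pearson correlation the 3 nearest to Cybb were other genes, Fas, Dtx3l and Bnip3, with rises of 7.59-fold, 26.8-fold and 18.5-fold. Closest to Sod2 were Irgm1, an interferon-induced GTPase, Apol9a and Sp140, at 0.0719, 0.0732 and 0.0948, with rises of 17.5-fold, 16.3-fold and 17.3-fold. Gbp7, Ifi204 and Apol9a belong to families with near-identical copies, among which estimated counts can be split. Closest to Sod3 were Capg, Adam9 and Pcdhgc3 (0.0568 to 0.0665), to Sod1 Chchd3, Cpsf4 and Tbcb (0.046 to 0.0522), to Cyba Clpp, Zfp516 and E4f1 (0.0403 to 0.0556) and to Nox4 Ppil4, Kbtbd7 and Twistnb (0.0661 to 0.071). The points of such a comparison share library and depth, and the measure describes likeness of pattern only.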

How the data were processed

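Members and gene lists were chosen with earlier results of these data known. Polyadenylated RNA was made into stranded libraries, per the labels' protocols, and expression was estimated with Salmon 1.10.1 against mm10, per the submitters' processing notes. The authors deposited estimated counts per gene as whole numbers; no source used here gives the summing to genes or the annotation release. Of 55822 identifiers, 51344 (92%) matched a symbol in GENCODE M21 without version, and gene lengths came from that annotation. Genes were filtered by edgeR 4.0.16 filterByExpr by group (16140 kept), scaled by TMM (mean factors 0.836, 1.09 and 1.09 in IFNγ/LPS CM, naive CM and regular medium) and tested in 1 quasi-likelihood model of all 12 libraries without a replicate block, two-sided, in R 4.3.3. An approximate SE of each log2 ratio (the fitted log2 fold change) was taken as |log2 ratio| divided by the root of F, which is the quasi-likelihood statistic. Alternatives used DESeq2 1.42.0, limma 3.58.1 (voom), other scalings and filters, pairwise fits, the block and leaving out each library. The fit was tested on simulated data. Genes named beyond the 8 were the called genes of the NADPH oxidase list, the 3 largest changes of the other lists and the 3 nearest genes per member with at least 5 CPM, plus the markers and some genes picked after the values were seen. No pair of replicates agreed within sampling noise. Regular medium replicate 4 differed most, with a chi-square per gene of 46.4 and 52.3 against replicates 1 and 2. Every other pair within a group lay between 4.6 and 20.9. The calls of Cyba, Nox4 and Sod1 that change without that library are given with each gene. Some genes of the lists are counted but not reported here by name.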

Additional observations from a re-analysis of the deposited data

Results flagged for a closer look

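In 18 sets of 4 libraries (6 genes in 3 groups), 2 had one library far from the other 3, and chance flags about 1 in 20 such sets. Nox4 stood at 15.9 CPM in naive CM replicate 3, against 18.3 to 18.6 CPM in the other libraries of naive CM. Without that library the log2 ratio of IFNγ/LPS CM against naive CM was -0.03 in place of 0.02, and neither passed (edgeR adjusted p = 0.775 and 0.822). Sod3 stood at 168 CPM in IFNγ/LPS CM replicate 1, against 151 to 152 CPM in the other libraries of IFNγ/LPS CM, and its call held without that library.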

How the results depend on the processing

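The numbers of genes called stayed within 1.5 times of 11611, 5594 and 11594 (IFNγ/LPS CM over naive CM, naive CM over regular medium, IFNγ/LPS CM over regular medium) under all 20 alternatives, with ranges of 11275 to 11958, 4683 to 5624 and 11219 to 11663 when single libraries were left out. With library totals the calls of the first comparison split into 3279 higher and 9371 lower, against 5830 and 5781 with TMM. Calls for Cybb, Sod1, Sod2 and Sod3 in both comparisons of IFNγ/LPS CM, and for Sod3 in naive CM against regular medium, held in all 20. Against naive CM, library totals reversed Cyba (-0.26), Nox4 (-0.37), Rac1 (-0.25), Clpp (-0.26), Zfp516 (-0.29), E4f1 (-0.24), Kbtbd7 (-0.29) and Twistnb (-0.32). Leaving out 1 library at a time moved 4 values across 0: Nox4 against naive CM (-0.0285 to 0.0651; -0.0079 without IFNγ/LPS CM replicate 1, -0.0285 without IFNγ/LPS CM replicate 2, -0.0276 without naive CM replicate 3), Ppil4 against naive CM (-0.0512 to 0.0173; 8e-04 without IFNγ/LPS CM replicate 3, the highest without naive CM replicate 1), Cybb between naive CM and regular medium (-0.0038, without regular medium replicate 3, to 0.1085) and Cyba between IFNγ/LPS CM and regular medium (-0.0945 to 0.014, the highest without regular medium replicate 4). None of these leave-one-out values passed the test. Nox4 passed in 10 of 20 alternatives against regular medium and in 4 of 20 in the comparison of naive CM with regular medium. Equal replicate numbers gave no sign of pairing (correlation of deviations -0.063 to 0.0659 over 12 pairs, no library closest to its own number in both other groups), which does not show that the libraries were unpaired. With the replicate number as a block 11653, 5780 and 11610 genes were called, Cyba against naive CM lost its call (edgeR adjusted p = 0.0702) and Nox4 passed against regular medium (edgeR adjusted p = 0.0202) and for naive CM against regular medium (edgeR adjusted p = 0.0209). With Pearson correlation in place of the root mean square difference, at least 2 of 3 nearest genes were shared for 1 of 6 members. Depth limits Nox1, Ncf1, Ncf4 and Rac2. The cause of these shifts was not tested.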

Other observations

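In naive CM against regular medium, macrophage medium cannot be told apart from starvation, serum or M-CSF. Naive CM had Cybb and Sod2 within 0.1 log2 units of regular medium and higher RNA of many genes that remove hydrogen peroxide. Of 17 tested, 10 were higher and 1 lower in naive CM than in regular medium, where 18.3% of all genes were called higher and 16.4% lower, and the split was the same with library totals. Among them, picked after the values were seen, were Gpx7, a glutathione peroxidase of the endoplasmic reticulum (13.1 CPM against 8.38 CPM, 1.57-fold, edgeR adjusted p = 6.6e-06), Txn1, the cytosolic thioredoxin (139 CPM against 94.9 CPM, 1.46-fold, edgeR adjusted p = 2.38e-08), and Prdx1, a cytosolic peroxiredoxin (510 CPM against 371 CPM, 1.38-fold, edgeR adjusted p = 2.49e-07). The gene that was lower was Txnrd3, a thioredoxin reductase (9.87 CPM against 14.0 CPM, log2 ratio -0.50, edgeR adjusted p = 2.48e-05).

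At least 3 ISRE/IRF matches, the number in the Cybb window, occurred in 5 of 32851 promoter windows (0.0152%); the number 3 was set after the Cybb window was seen.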
